A study of Mus musculus with 6 samples.

Results

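Transcripts of 4 transcription factors that natural killer (NK) cells depend on, Eomes, Id2, Ets1 and Ikzf3, were followed in mouse splenic NK cells exposed to oleic acid. The 4 genes were picked by symbol from the deposited table of 559 genes, and all 4 symbols were found. The exposed group (OA, 3 libraries) was purified NK cells from the spleen of C57BL/6 mice, given 0.2 mM of the monounsaturated fatty acid oleic acid once and kept for 36 h. The control group (3 libraries) was the same kind of cell kept without it. The purification method, any cytokine in the medium and whether libraries came from separate mice are not given in the sources used here, so p-values measure the spread between libraries, which may be technical.

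NK cells are innate lymphocytes that kill infected and tumour cells, and their identity is held by a small network of DNA-binding proteins. EOMES is a T-box factor that mature NK cells need to keep their identity and that drives receptor and granule genes. ID2 has no DNA-binding domain of its own and acts by holding E proteins off their E-box sites, which lets innate lymphoid and NK progenitors develop and respond to interleukin 15. ETS1 is the founding member of the ETS family and is needed early in NK development, and IKZF3 (Aiolos) is an Ikaros zinc finger factor needed for late NK maturation. None of these genes is exclusive to NK cells: Ets1 and Ikzf3 are also expressed in B and T cells, Id2 in dendritic cells and other innate lymphocytes, and Eomes in some CD8 T cells.

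Levels are in TPM, values that scale each library's transcripts, corrected for length, to one common total. Each of the 559 genes of the table had passed the authors' test on these same 6 libraries (100% at a Q under 0.05 in the authors' deposited table, largest Q 0.0499), so a difference between the groups was a condition for a gene to be there. The background for any count below is therefore high. The adjusted p-values below cover only these selected genes, so they come out too small. The calls made from them are not independent support for a difference. In limma on log2(TPM + 1), with Benjamini-Hochberg adjustment over the 559 genes, 40.1% of the table fell in OA and 36% rose at an adjusted p under 0.05. The table's summed level was 122882 to 126392 TPM in the OA libraries and 121857 to 122992 TPM in the control libraries. Heart muscle transcripts (14 listed of 20 on the list) summed to 6604.5 TPM in OA replicate 3, or 0.66% of that library's scale, against 50.1 and 482 TPM in the other OA libraries and 34.0 to 58.0 TPM in the controls. With the libraries rescaled without those genes the log2 fold changes of the factors were −0.37 for Eomes, −0.18 for Id2, −0.20 for Ets1 and −0.19 for Ikzf3, nearly the values given below. The rescaling covers only those 14 genes. Others with a like peak in OA replicate 3, such as Fabp3 (579 TPM) and Cryab (247 TPM), were not taken out, and genes outside the table could not be.

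Promoter sequences were at hand for 2 of the 4 genes and are shown because the genes were lower together here. They are credited to RefSeq on GRCm38.p6 and run from 250 bases before to 50 after the start of transcription, on the strand of the gene. The Eomes window is chr9:118477939-118478238 on the plus strand and the Id2 window is chr12:25096043-25096342 on the minus strand. Capitals mark every match, on either strand, to the T-box motif AGGTGTNA, the E-box CANNTG, the ETS motif CCGGAA, the Ikaros motif TGGGAA, the STAT motif TTCNNNGAA or the TATA motif TATANAN; the letters of the motifs were settled with these sequences in view.
Eomes: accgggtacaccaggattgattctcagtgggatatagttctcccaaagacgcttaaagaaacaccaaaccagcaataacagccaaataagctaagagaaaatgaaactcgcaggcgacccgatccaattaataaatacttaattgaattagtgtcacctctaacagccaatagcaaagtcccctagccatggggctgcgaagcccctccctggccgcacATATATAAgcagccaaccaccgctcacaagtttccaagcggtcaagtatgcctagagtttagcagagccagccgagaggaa
Id2: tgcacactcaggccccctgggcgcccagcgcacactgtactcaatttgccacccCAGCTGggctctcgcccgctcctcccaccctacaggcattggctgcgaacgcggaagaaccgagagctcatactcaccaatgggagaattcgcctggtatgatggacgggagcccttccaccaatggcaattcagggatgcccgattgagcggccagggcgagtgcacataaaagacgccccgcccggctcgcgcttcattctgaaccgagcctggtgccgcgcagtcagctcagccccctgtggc
The Eomes window held 2 overlapping TATA matches, which start 31 and 30 bases before the transcription start on opposite strands. The Id2 window held 1 E-box, CAGCTG, which starts 196 bases before the transcription start, and no TATA match. The other motifs had no match in either window. Of the 32851 promoter windows of the same length from RefSeq, 72.3% held an E-box, 24.6% a TATA match, 25.6% the Ikaros motif, 14.9% the ETS motif, 8.3% the STAT motif and 3.03% the T-box motif. The E-box in Id2 is thus of a kind that most promoters hold. The Eomes window had a GC content of 47.3% and the Id2 window one of 63.3%, against a median of 52.7% over all windows.

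All 4 factors were lower in every OA library than in every control library, and the drop was modest for 3 of them. Eomes stood at 76.6% of its control level, Ets1 at 87.0%, Ikzf3 at 87.1% and Id2 at 88.0%. Of the 4, limma called Eomes, Id2 and Ikzf3 lower, and Ets1 did not pass. Read against the table, 3 of 4 is to be set beside 40.1% of all genes that fell, and 4 of 4 with no overlap beside 48.5% of all genes with every OA library below every control library. The lower share of Eomes transcripts, and of any gene below, may come from fewer cells of a type in the sample or from less RNA per cell, which bulk libraries cannot tell apart.

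Eomes lies on chromosome 9 (118478186 to 118486132 on GRCm38, RefSeq). It had 37.9, 35.9 and 30.9 TPM in OA replicates 1, 2 and 3, against 44.2, 41.65 and 50.9 TPM in control replicates 1, 2 and 3. The highest OA library was 3.77 TPM under the lowest control library. The means were 34.9 ± 3.58 TPM in OA and 45.6 ± 4.77 TPM in control (SD, n = 3 each), and the log2 fold change was −0.37 (SE 0.111, adjusted p = 0.0336, limma). The 95% interval of the fit ran from 63.5% to 93.7% of the control level. In the authors' deposited table, Eomes had a log2 fold change of −0.38 and a Q of 0.00689, the smallest Q of the 4.

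Id2, on chromosome 12 (25093799 to 25096092), was by far the most abundant of the factors. It had 864, 816 and 772 TPM in OA replicates 1, 2 and 3, against 903, 905 and 977 TPM in control replicates 1, 2 and 3. The groups were 39.1 TPM apart at their nearest libraries. Id2 averaged 817 ± 46.0 TPM in OA and 928 ± 42.1 TPM in control (SD, n = 3 each), a log2 fold change of −0.18 (SE 0.0657, adjusted p = 0.0477, limma), with a 95% interval of 78.4% to 98.8% of control. The value lay just inside the threshold of 0.05. The authors' deposited table gave Id2 a log2 fold change of −0.18 and a Q of 0.00895.

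Ets1, on chromosome 9 (32636241 to 32757820), had 146, 133 and 124 TPM in OA replicates 1, 2 and 3, against 153, 147 and 163 TPM in control replicates 1, 2 and 3. Its groups came closest of the 4: OA replicate 1 was 1.45 TPM under control replicate 2. The means were 134 ± 10.8 TPM in OA and 154 ± 7.86 TPM in control (SD, n = 3 each), and the log2 fold change of −0.20 (SE 0.0792) did not pass (adjusted p = 0.0588, limma; 95% interval 75.7% to 99.9% of control). The authors' deposited table gave it a log2 fold change of −0.20 and a Q of 0.0287.

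Ikzf3, on chromosome 11 (98464610 to 98546031), had 79.4, 73.6 and 70.1 TPM in OA replicates 1, 2 and 3, against 84.0, 83.05 and 89.2 TPM in control replicates 1, 2 and 3. The gap between the nearest libraries was 3.62 TPM. It averaged 74.4 ± 4.69 TPM in OA and 85.4 ± 3.29 TPM in control (SD, n = 3 each), a log2 fold change of −0.20 (SE 0.0661, adjusted p = 0.0415, limma; 95% interval 77.7% to 97.9% of control). The authors' deposited table gave −0.20 with a Q of 0.0296, the largest of the 4.

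**Figure D1:**
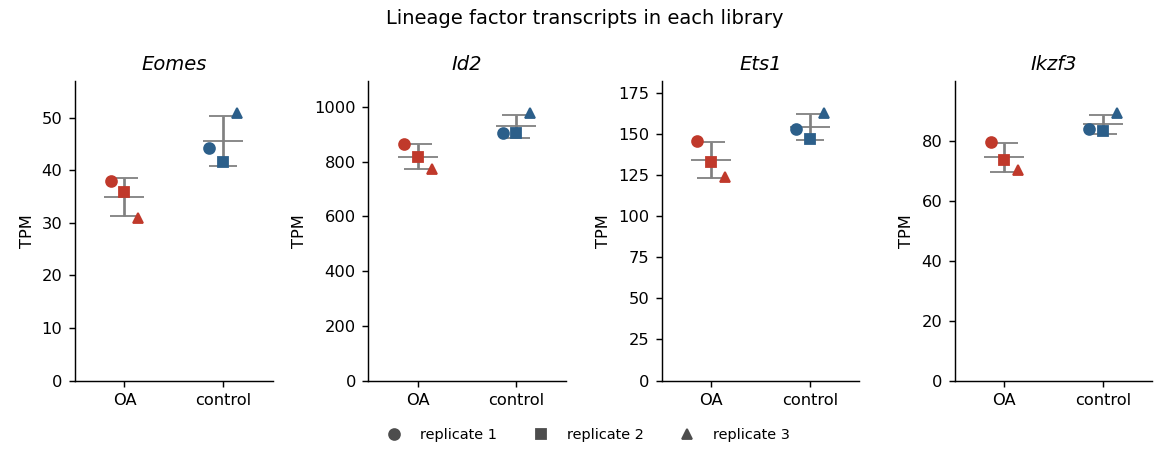
TPM (y axis, from 0) of each factor in the 3 OA libraries (red, left) and the 3 control libraries (blue, right), with symbols for replicate numbers and grey bars for mean ± SD. In each panel all OA points lie below all control points; replicate 3 is the lowest OA library and the highest control library, as for Eomes at 30.9 and 50.9 TPM.

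Taken singly, each factor gave p = 0.1 in a two-sided exact permutation test over the 6 libraries, which is the smallest value that 3 against 3 can give. The calls turned on which libraries were in the fit, as they did over the whole table. Of the 4 factors limma called 0 without OA replicate 2, without OA replicate 3 and without each of control replicates 1, 2 and 3 (1 factor, Eomes, at an unadjusted p under 0.05 in each of these 5 fits), and 4 without OA replicate 1. Of all 559 genes, limma called 224 lower with all libraries, but 0 without OA replicate 2 or control replicate 1. It called 13 and 30 lower without control replicates 2 and 3, 138 without OA replicate 3 and 187 without OA replicate 1. Replicates 1 and 2 of both groups gave 191 lower. With replicates 1 and 2 of both groups it called 1, Eomes, whose log2 fold change was then −0.21; the others were at −0.11 (Id2), −0.11 (Ets1) and −0.13 (Ikzf3). With the libraries scaled to equal medians it called 0 (1, Eomes, unadjusted), while the log2 fold changes were between −0.38 and −0.19. In that fit 82 of all 559 genes were called lower. The medians are those of the 559 genes, all picked for a group difference, and not of whole libraries.

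**Figure D2:**
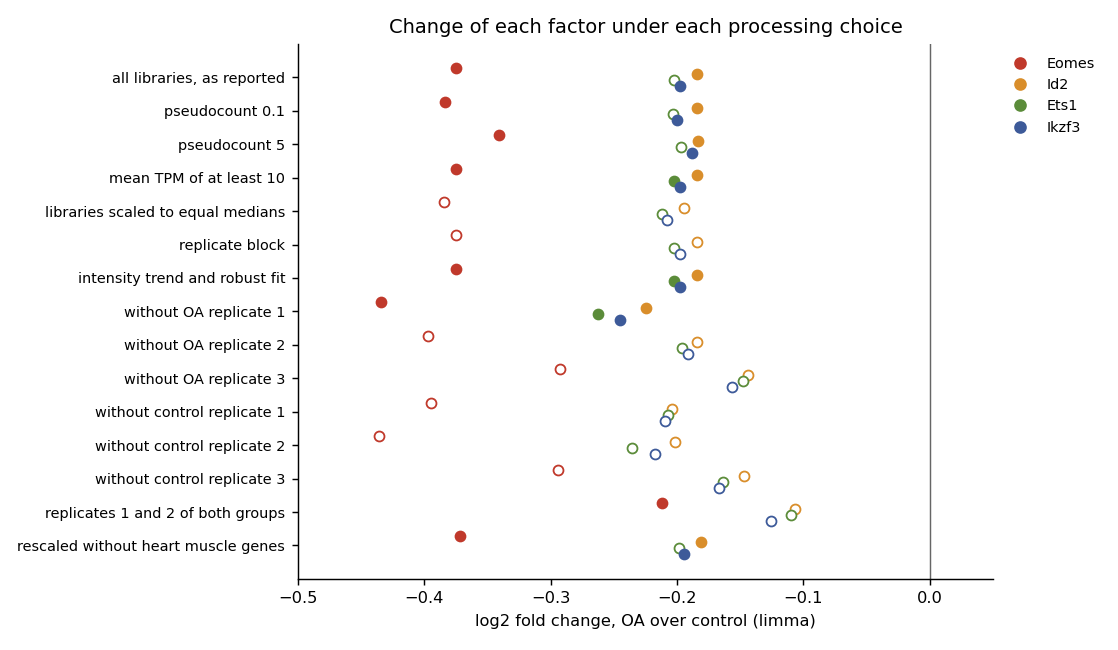
Log2 fold change of each factor, OA over control (x axis), under each processing choice (y axis); filled points passed at an adjusted p under 0.05 in limma. All points lie below 0, between −0.44 and −0.11, with Eomes the farthest from 0 under each choice, and the filled points vary with the choice.

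The levels of the 4 genes, compared per length in TPM, kept the same order in 6 of 6 libraries: Id2 was highest, then Ets1, then Ikzf3, and Eomes was lowest. No neighbours in that order overlapped: the lowest Id2 library had 772 TPM and the highest Ets1 library 163 TPM, the lowest Ets1 library 124 TPM and the highest Ikzf3 library 89.2 TPM, and the lowest Ikzf3 library 70.1 TPM and the highest Eomes library 50.9 TPM. By mean TPM over the 6 libraries Id2 ranked 27 of the 559 genes and Eomes 362. Replicates were least alike for Eomes, with a coefficient of variation of TPM of 10.3% in OA and 10.5% in control. For the other factors it was 5.62% to 8.08% in OA and 3.85% to 5.1% in control.

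The group difference was larger for Eomes than for the other factors, which were close to each other. In each library the log2 level of Eomes minus that of Id2 was −4.48, −4.47 and −4.60 in OA replicates 1 to 3, against −4.32, −4.41 and −4.24 in control replicates 1 to 3, a difference of −0.19 between the group means. Every OA library was under every control library in this quantity. The same difference was −0.17 for Eomes minus Ets1 and −0.18 for Eomes minus Ikzf3. For these 3 pairs the two-sided exact permutation test gave p = 0.1, the smallest it can give, and 0.2 after adjustment over the 6 pairs compared. Among the other factors the differences were 0.018 for Id2 minus Ets1 (exact permutation p = 0.6), 0.014 for Id2 minus Ikzf3 (p = 0.4) and −0.0044 for Ets1 minus Ikzf3 (p = 0.9), on the log2 scale. Per library, Id2 minus Ikzf3 lay between 3.43 and 3.45 in OA and between 3.41 and 3.44 in control, so the ratio of these 2 transcripts varied little in any library.

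Whole profiles restate that likeness, because the measure used is the spread of the log2 ratio of 2 genes over the libraries. Likeness was measured as the root mean square (RMS) difference between 2 genes' log2(TPM + 1) values over the 6 libraries, each gene centred on its own mean, and was ranked over the 546 other named genes of the table. The gene most like Id2 was Ikzf3 (RMS 0.0133), and the gene most like Ikzf3 was Id2. Next to Id2 came H2-T23 (0.0147), which encodes the class Ib molecule Qa-1, and Igtp (0.0188), an immunity-related GTPase gene. Next to Ikzf3 came Igtp (0.0189) and Arf6 (0.0196), a small GTPase gene. Ets1 was most like Ikzf3 (0.0206), then the Src family kinase gene Fyn (0.0251) and Id2 (0.0283). Eomes stood elsewhere: its nearest genes were Gbp9 (0.0256), a guanylate-binding protein gene, Samhd1 (0.0262), which encodes a nucleotide hydrolase, and Klrc1 (0.0302), which encodes the NK receptor NKG2A. From Eomes the other factors ranked 150 (Ets1), 175 (Ikzf3) and 183 (Id2) of 546. The measure is not scaled for the size of a change, so the larger change of Eomes contributes to these ranks. These are descriptions over 6 libraries that share one group difference.

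Other factors of these families seldom appear in the table. Of 47 genes on the list of NK and innate lymphoid lineage factors, 5 were listed. They were the 4 described here, of which 3 fell and Ets1 did not pass, and Nr4a1, which rose. The median log2 fold change of the 5, −0.20, was the value of Ikzf3 itself. Its distance from the 0.14 over all 559 genes thus reflects the choice of members. Nr4a1, an orphan nuclear receptor gene that lymphocytes induce on stimulation, rose to 113 ± 5.13 TPM in OA, against 84.8 ± 9.15 TPM in control (SD, n = 3 each; log2 0.42, SE 0.0945, adjusted p = 0.026, limma). Eomes was the 1 listed gene of 18 T-box factors, and Id2 the 1 listed gene of 7 ID and E protein genes. Tbx21, Nfil3, Tox and Gata3 were not listed and are not analysed here.

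In the Ikaros family 2 of 5 genes were listed and both fell, beside 40.1% of all 559 genes. Ikzf4 (Eos), a relative of Ikzf3 known from regulatory T cells, had 16.0, 15.7 and 15.5 TPM in OA replicates 1 to 3, against 19.0, 18.45 and 19.0 TPM in control replicates 1 to 3, with a log2 fold change of −0.24 (SE 0.0431, adjusted p = 0.026, limma). Its groups did not overlap, and its replicates lay closer together than those of Ikzf3. Of 26 ETS family genes 2 were listed, and they went opposite ways. Spib, a factor of B cells and plasmacytoid dendritic cells that also stands on the B cell marker list, rose to 34.5 ± 1.88 TPM in OA, against 23.4 ± 4.08 TPM in control (log2 0.56, SE 0.14, adjusted p = 0.0284, limma), while Ets1 was lower and did not pass. Nr4a1, Ikzf4 and Spib did not pass without OA replicate 2 (adjusted p = 0.0793, 0.0793 and 0.0818, limma) or without control replicate 1 (0.0662 each), and Spib did not pass without control replicate 2 (0.0507).

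The receptor and granule genes of NK cells that were listed were mostly lower as well. A list of 27 effector, receptor and cytokine response genes of NK cells, several of which are known to need EOMES, ETS1 or ID2 (the dependent list), had 19 listed members. Of these 16 fell, 1 rose and 2 did not pass, with a median log2 fold change of −0.39. Over all 559 genes 40.1% fell and 36% rose, with a median of 0.14. The 19 were listed because they differed between the groups, so the counts do not describe the whole list. Il2rb, the receptor chain shared by interleukins 2 and 15 and a target of EOMES, had 827, 790 and 664 TPM in OA replicates 1 to 3, against 937, 935 and 1024 TPM in control replicates 1 to 3 (log2 −0.35, SE 0.1, adjusted p = 0.0326, limma). Its OA libraries were all below its control libraries. Prf1 (perforin), another EOMES target, stood at 0.778 of its control level, Ncr1 (NKp46) at 0.699, Klrd1 (CD94) at 0.754 and Tnfsf10 (TRAIL) at 0.689. All 4 fell. Whether the levels of the factors had a part in the levels of these genes was not tested.

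The exceptions in this list were few. Socs3, a feedback inhibitor of cytokine signalling, had a log2 fold change of 0.12 and did not pass (adjusted p = 0.0627, limma). Spn (CD43), a maturation antigen, had −0.19 and did not pass (0.0648). Itgam (CD11b), a maturation marker of NK cells that is also on the myeloid list, rose by 0.16 on the log2 scale (adjusted p = 0.0477, limma), but did not pass in any of the 6 fits that leave out 1 library, or with the libraries scaled to equal medians. Without OA replicate 2, control replicate 1 or control replicate 2 limma called 0 genes of this list lower (16, 14 and 16 at an unadjusted p under 0.05), and without control replicate 3 it called 1, against 14 without OA replicate 1 and 14 without OA replicate 3. With equal medians it called 11 lower. The list's median log2 fold change was −0.28 without OA replicate 3. In the fits without OA replicate 2 or control replicate 1, 0 of all 559 genes were called.

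**Figure D3:**
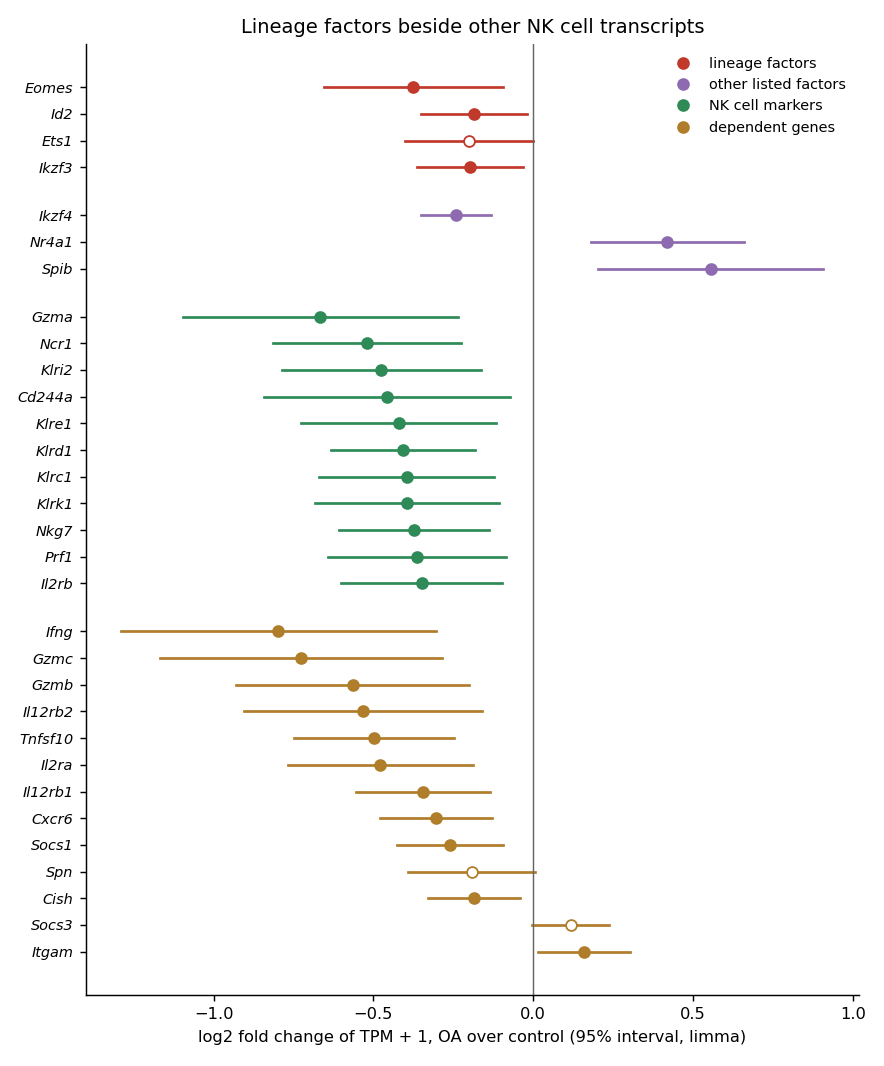
Log2 fold change of TPM + 1 (x axis), OA over control, with its 95% limma interval, for the 4 factors, 3 other listed factors, 11 NK cell markers and the other genes of the dependent list; filled points passed at an adjusted p under 0.05. Id2, Ets1 and Ikzf3 lie between −0.20 and −0.18, nearer to 0 than each of the 11 NK markers, whose values end at −0.35 (Il2rb), while Eomes at −0.37 lies among them.

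The labelled cell type could be checked against its markers. Of 20 NK cell markers 12 were listed, Eomes among them, and all 12 fell, with a median log2 fold change of −0.40. This is to be set beside 40.1% of all 559 genes that fell. Of the 12, 6 also stand on the dependent list. The 12 summed to 2130 to 2707 TPM in OA and 3160 to 3686 TPM in control, and no listed NK marker was at 0 in any library. Among the 224 genes of the table that fell, 84 fell by more than Eomes, 208 by more than Id2 and 198 by more than Ikzf3, the median fall being −0.32. Ets1, which did not pass, had a smaller change than 197 of them. Limma called 0 NK markers lower without OA replicate 2 and without each of the control replicates (8 to 12 before adjustment, at p under 0.05). Without OA replicate 3 it called 8, and with the libraries scaled to equal medians 5. Of all 559 genes, limma called 0 without OA replicate 2 or control replicate 1.

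Set against 11 listed NK markers of the same library, all of which fell in OA, the factors were not lower. The markers are listed because they differed between the groups, so a factor that fell by less must come out higher on this scale. For each library the log2 level of a factor was taken relative to the mean log2 level of the 11 listed NK markers other than Eomes, a mean that was itself 0.44 lower in OA (6.96 ± 0.18 in OA and 7.40 ± 0.112 in control, SD, n = 3 each). Relative to it, Id2 stood at 2.65, 2.66 and 2.83 in OA replicates 1 to 3, against 2.46, 2.51 and 2.41 in control replicates 1 to 3. All OA libraries were above all control libraries, by 0.25 between the means, or 1.19-fold. Ets1 stood at 0.089, 0.047 and 0.207 in OA replicates 1 to 3, against −0.094, −0.101 and −0.171 in control replicates 1 to 3, a difference of 0.24. Ikzf3 stood at −0.777, −0.793 and −0.607 in OA replicates 1 to 3, against −0.951, −0.917 and −1.03 in control replicates 1 to 3, also a difference of 0.24.

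Eomes kept closer to the markers. Relative to their mean it stood at −1.83, −1.81 and −1.76 in OA replicates 1 to 3, against −1.86, −1.90 and −1.83 in control replicates 1 to 3. The difference was 0.064 on the log2 scale, or 1.05-fold, and the nearest libraries all but met. The two-sided exact permutation test gave p = 0.1 for each of the 4 factors, before and after adjustment over the 4, which is the smallest value it can give. The differences without OA replicate 3 were 0.19 for Id2, 0.19 for Ets1, 0.18 for Ikzf3 and 0.046 for Eomes. These markers were in the table because they differed between the groups, so they are a yardstick of NK transcripts that were lower in OA and not of all NK transcripts.

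**Figure D4:**
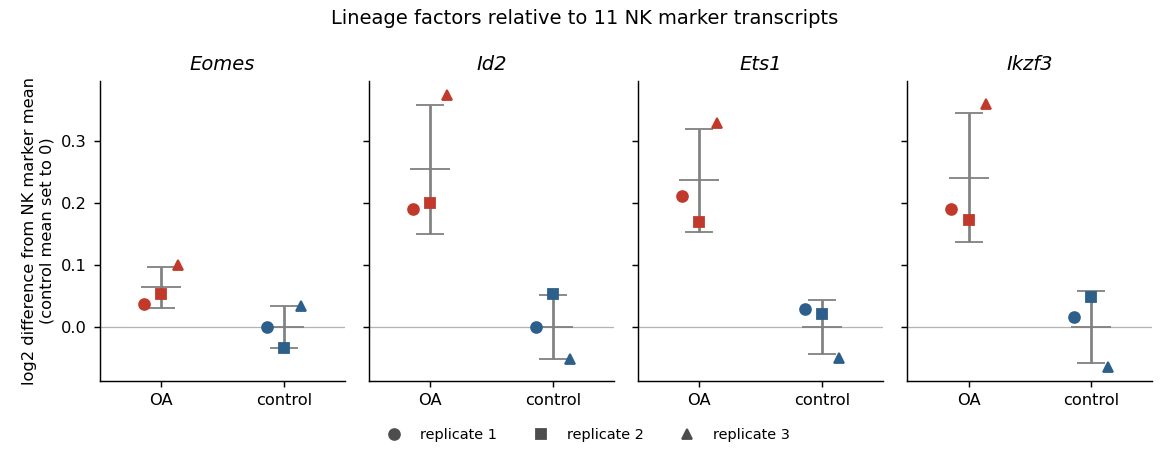
Log2 level of each factor relative to the mean of 11 NK marker genes in the same library (y axis, control mean set to 0), for 3 OA libraries (red, left) and 3 control libraries (blue, right) with mean ± SD in grey. Id2, Ets1 and Ikzf3 are 0.24 to 0.25 higher in OA on this scale and Eomes is 0.064 higher, with OA replicate 3 the highest library in each panel.

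Listed markers of other cells in the spleen moved with the factors or against them. The counts are to be set beside 40.1% of all 559 genes that fell and 36% that rose. Both listed T cell markers of 17, Icos and Cd28, fell, and they summed to 194 to 240 TPM in OA and 259 to 291 TPM in control. Of 22 B and plasma cell markers 7 were listed, of which 6 rose and 1 did not pass; they summed to 555 to 648 TPM in OA and 360 to 446 TPM in control. Of 29 monocyte, macrophage and dendritic cell markers 11 were listed, of which 9 rose and 2, Ly6c2 and Ccr2, fell, with a sum of 2232 to 2450 TPM in OA and 1653 to 1947 TPM in control. No listed marker of these 3 lists was at 0. Cd3e, Cd3d and Cd8a were not listed and are not analysed here. Without OA replicate 2 or control replicate 1 limma called 0 genes of these 3 lists and 0 of the whole table. Unadjusted, 6 B cell and 7 myeloid markers were higher and 1 T cell and 1 myeloid marker lower in each of these fits. Without control replicate 2 it called 4 B cell and 4 myeloid markers higher and 0 T cell markers. Without control replicate 3 it called 5 B cell and 5 myeloid markers higher and 0 T cell markers, and without OA replicate 3, 1 T cell marker lower and 6 myeloid markers higher. With equal medians it called 1 T cell marker lower, and 6 B cell and 7 myeloid markers higher. Of 21 neutrophil, mast cell and basophil markers 5 were listed, of which 3 rose (Mmp8, Mmp9 and Il6) and 2 fell (Mcpt8 and Kit). They summed to 903 to 966 TPM in OA and 710 to 815 TPM in control. Without OA replicate 2 or control replicate 1 limma called 0 of them. The part of all these cells in the levels of the factors was not tested.

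The order of the libraries was shared as well. Each of the 4 factors had its highest level in control replicate 3 and its lowest in OA replicate 3, as did 42.4% of the 559 genes and 12 of the 12 listed NK markers. Of the 271 genes with every OA library below every control library, 87.1% had this shape. The B cell markers had the reverse shape for 5 of 7 genes and the myeloid markers for 5 of 11. On the scale centred on the mean of the 6 libraries, Eomes stood at −0.35 in OA replicate 3 and 0.35 in control replicate 3, beside −0.42 and 0.35 for the mean of the 11 NK markers. Id2, Ets1 and Ikzf3 lay between −0.21 and −0.17 in OA replicate 3 and between 0.16 and 0.18 in control replicate 3. The mean of the B cell markers stood at 0.36 in OA replicate 3 and −0.39 in control replicate 3.

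**Figure D5:**
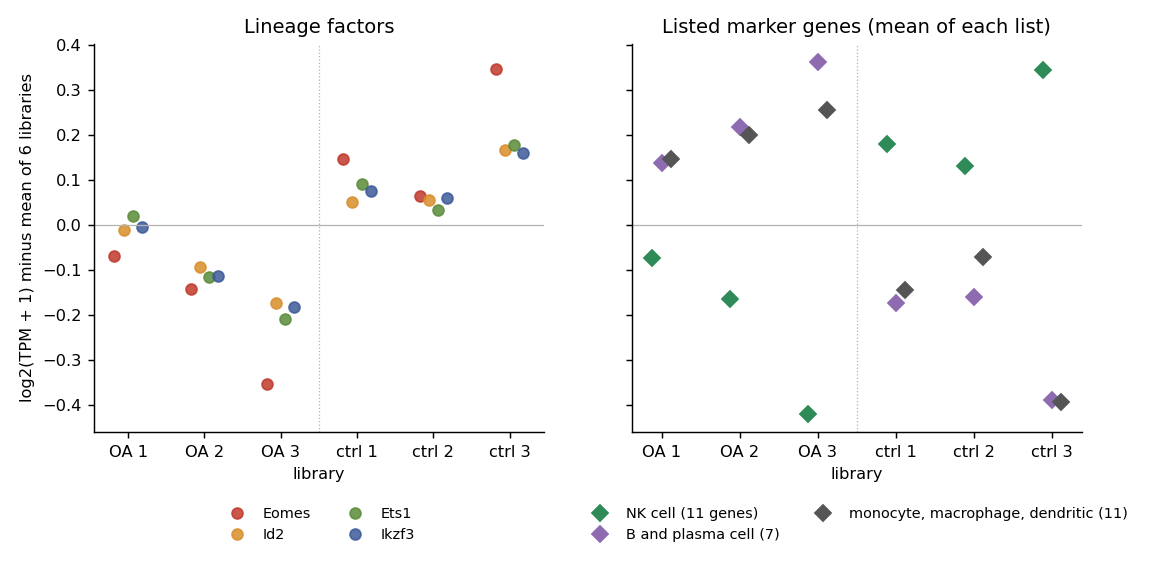
Log2(TPM + 1) minus the mean of the 6 libraries (y axis) in each library (x axis, OA left of control), for the 4 factors (left panel) and for the mean of 3 lists of marker genes (right panel). Eomes spans −0.35 to 0.35, close to the NK marker mean at −0.42 to 0.35, the other factors span a narrower range, and the B cell and myeloid markers run the other way.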

How the data were processed

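RNA from 6 libraries (3 OA, 3 control) was analysed, grouped by the treatment in the labels. The submitters' processing notes list mm10, Bowtie2, RSEM 1.3.1 and DESeq2 1.4.5 without saying what each did. The authors deposited TPM per library and a mean TPM per group, per the file headers, for 559 genes. Also deposited were a log2 fold change, OA relative to control, a P value and a Q value for every gene, made by the authors. TPM keeps no read numbers, so depth and counting error are unknown, and a TPM is a share, which moves when other transcripts move.

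All 559 genes were fitted with limma 3.58.1 (R 4.3.3) on log2(TPM + 1), without a filter or covariate, two-sided, with Benjamini-Hochberg adjustment and a threshold of 0.05. Fold changes are on that scale and so come out too small for genes of low level. The fit was also tested on 20 simulated tables of 559 genes. A log2 change of 0.25 was recovered in 44.9% of cases and one of 0.5 in 76.4%, with 2.7% of calls false. Changes as small as those of Id2, Ets1 and Ikzf3 were not simulated. Exact permutation tests used scipy 1.17.1 in Python 3.11.15.

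The members, the gene lists and the markers were chosen with earlier results of these data known. Named beside the members were listed genes of the fixed lists and, for each member, the 3 nearest profiles. Alternatives tried were other pseudocounts, a level filter, equal medians, a trended robust fit, a replicate block and the omission of libraries. Rescaling without heart muscle genes and a yardstick of receptor genes were chosen after seeing the data.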

Additional observations from a re-analysis of the deposited data

How the results depend on the processing

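In each alternative run all 4 factors were lower in OA, which for fits on fewer libraries follows from the lack of overlap, but the calls did not hold throughout, and the cause was not tested unless named. With libraries scaled to equal medians of the selected genes in the table, 0 factors were called. The log2 fold changes were −0.38 for Eomes, −0.19 for Id2 and −0.21 for Ikzf3 (adjusted p = 0.0558, 0.0911 and 0.0826, limma). Over the table this scaling gave 162 genes higher and 82 lower, against 201 and 224 as deposited. With the replicate block, which uses up 2 of the 4 residual degrees of freedom, 0 factors and 0 genes of the table were called. The log2 fold changes were −0.37 for Eomes, −0.18 for Id2 and −0.20 for Ikzf3 (adjusted p = 0.121, 0.153 and 0.141, limma). The sources used here do not say whether same-numbered libraries were paired. Deviations of same-numbered libraries correlated over genes at 0.327, −0.109 and −0.0808. Differently numbered libraries reached −0.399 and 0.350, so these correlations cannot show whether libraries were paired. With replicates 1 and 2 of both groups, which leaves fewer samples, 1 factor was called, with −0.11 for Id2 and −0.13 for Ikzf3 not past (adjusted p = 0.0927 and 0.0938). Ets1, at −0.20, passed among genes with a mean TPM of at least 10 (adjusted p = 0.0463) and in the trended robust fit (0.0386). Leaving out 1 library at a time gave −0.44 to −0.29 for Eomes, −0.22 to −0.14 for Id2, −0.26 to −0.15 for Ets1 and −0.25 to −0.16 for Ikzf3, and 0 to 4 factors called. Over all 14 alternatives the adjusted p was 0.0201 to 0.121 for Eomes, 0.0302 to 0.153 for Id2, 0.0386 to 0.185 for Ets1 and 0.0329 to 0.141 for Ikzf3. Differences between factors and levels relative to NK markers were rerun only with other pseudocounts and with 1 library left out. The levels were also taken relative to receptor genes alone. In each of these runs they moved by less than 1 pooled SD. Relative to receptor genes alone the differences between the groups were 0.24 for Id2, 0.23 for Ets1, 0.23 for Ikzf3 and 0.053 for Eomes.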
